A study of Saccharomyces cerevisiae with 9 samples.

Results

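The comparison described here sets budding yeast depleted of both Bdp1 and Rna15 against yeast depleted of neither. Total RNA of Saccharomyces cerevisiae was sequenced directly on Oxford Nanopore flow cells, in which each read begins at the poly(A) tail and therefore locates a transcript's 3′ end. The double depletion, labelled Bdp1AA Rna15AA, carries BDP1-FRB::kanMX6 and RNA15-FRB::His, and its reference, labelled WT, carries neither tag. Another group, Bdp1AA, carries BDP1-FRB::kanMX6 alone and is given beside the others where it helps. All groups share the HHY168 background and fpr1delta::hphMX4, and all received rapamycin for 2 h, WT included. The members were the 3 libraries labelled Bdp1AA Rna15AA and the 3 labelled WT, 6 of the 9 libraries of the series. The 3 libraries of a group are pooled into 1 deposited column, so no spread between libraries could be computed, no test across libraries was possible and every interval below is a 95% interval that covers counting error only.

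In the anchor-away system rapamycin ties an FRB-tagged protein to an anchor on a ribosomal protein, which carries it out of the nucleus. Bdp1 belongs to TFIIIB, which brings RNA polymerase III (Pol III) to tRNA genes and other Pol III genes. Rna15 is the RNA-binding subunit of cleavage factor IA, which recognises sequences near the 3′ end of the nascent mRNA and is needed for cleavage and polyadenylation. Where cleavage fails at the usual site, RNA polymerase II is known to read on and the transcript can end at a site farther downstream. The study's title names TFIIIB as a roadblock in the choice of such sites. Because both proteins were depleted in the same cells, the difference from WT is that of the combined depletion.

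The tables list a signal, a scaled number of read ends, per gene and position. Each value was a whole multiple of a fixed step, which was taken as 1 read (0.0758 in the double depletion, 0.0510 in Bdp1AA and 0.0429 in WT). At a common minimum signal of 0.834 per position, ends downstream of genes came to 7020861 reads and 4506 features in the double depletion, 14096898 reads and 5337 features in Bdp1AA, and 22048431 reads and 5619 features in WT. Of 6516 features listed in any table, 3003 had at least 60 downstream reads in both the double depletion and WT and were compared, of which 2825 were protein-coding genes, 34 dubious coding features and 144 noncoding or Ty features. The tagged genes lacked their WT ends. BDP1 was not listed in the double depletion or in Bdp1AA, against 298 reads in WT. In all groups, ends inside a gene were listed for minus-strand genes only. Ends inside BDP1, on the plus strand, would therefore not be listed under it. RNA15 had no downstream end in the double depletion, where 382 reads ended inside the gene with the top position 4 nt before its end, against 143 downstream reads in Bdp1AA and 380 in WT. FPR1, which the labels give as deleted in all groups, was listed neither in the double depletion nor in Bdp1AA and had 30 reads in WT. RPL13A was not listed in any group.

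The change seen most widely was a move of 3′ ends away from genes. In the double depletion the mean 3′ end lay at least 20 nt farther downstream (distal) than in WT for 1259 of 3003 genes, 41.9%. A move of at least 20 nt toward the gene (proximal) was found for 35 genes, 1.17%. The mean end lay farther out in the double depletion for 2621 genes (87.3%), and the shift had a median of 12.9 nt (quartiles 2.41 and 58.1 nt). A shift of at least 100 nt was found for 529 genes, of at least 500 nt for 124 and of at least 1000 nt for 40. Among the 2921 genes that could also be compared between Bdp1AA and WT, 1235 were distal in the double depletion and 71 in Bdp1AA, and the median shift was 13.0 nt in the double depletion and −0.16 nt in Bdp1AA. These 2 comparisons share the WT column. Over all 4543 genes comparable between Bdp1AA and WT, 2.33% were distal. The count of distal genes depends on the summary of position: with the median end in place of the mean it was 669, and with ends up to 500 nt it was 779.

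Part of the genes changed in their use of poly(A) sites, and the median gene kept 98.4% of its double-depletion reads in the main WT cluster. After ends at most 25 nt apart were joined into clusters, at least 20 percentage points of the reads sat in other clusters in the double depletion than in WT for 799 of 3003 genes, 26.6%. The difference was at least 50 points for 368 genes and at least 90 points for 77. The most used cluster was a different one for 411 genes, more distal in the double depletion for 395 of them and more proximal for 16. In 204 of the 395, the site used most in the double depletion had no WT read listed under the same gene. Such a site can still be a WT end of a neighbouring gene, as for YGR210C below. The median distance between the main ends of the 395 genes was 161 nt (quartiles 94.5 and 372.5 nt). For 99 genes no read of the double depletion remained in the main WT cluster.

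The sequences around the main ends of 6 genes, taken from the 10 with the largest differences in site usage among those with 200 or more reads in each group, show where such a move led. Each window holds 30 bases of the R64 reference on the strand of the transcript, 24 before the end and 5 after it, and the capital marks the end itself. The genes are TFB3 (a subunit of the transcription factor TFIIH), YGR210C (no standard name), CRN1 (coronin, an actin-binding protein), HCR1 (a translation initiation factor 3 component), SEC22 (a SNARE of transport between the endoplasmic reticulum and the Golgi) and ECM16 (a helicase of small ribosomal subunit assembly).
TFB3, main end in the double depletion, chrIV:1385408-1385437, plus strand: tatataaaatattttgataccctgTacctg
TFB3, main end in WT, chrIV:1384859-1384888, plus strand: cgatctgtttcagtgttcagaaaaAaggca
YGR210C, main end in the double depletion, chrVII:912825-912854, minus strand: tttaaaaagaaactctattacatcTatcta
YGR210C, main end in WT, chrVII:913402-913431, minus strand: ctccctacaaggtggctcttttctTactaa
CRN1, main end in the double depletion, chrXII:993035-993064, plus strand: tgaatgaatttttatttatattttTcttcg
CRN1, main end in WT, chrXII:992862-992891, plus strand: gtccactaacaaaaaaggaaacaaAatgtt
HCR1, main end in the double depletion, chrXII:538386-538415, minus strand: catcatcaacatgctcaattttctTccgtc
HCR1, main end in WT, chrXII:538547-538576, minus strand: gaatataatgtgtttttgcaccgtTatctg
SEC22, main end in the double depletion, chrXII:681130-681159, plus strand: taagttataattcctggaaaaaaaAagaaa
SEC22, main end in WT, chrXII:680926-680955, plus strand: gtatggcaatttatttgacataatTacgta
ECM16, main end in the double depletion, chrXIII:527677-527706, plus strand: ttatacgttttttttattgaacaaAagtaa
ECM16, main end in WT, chrXIII:527554-527583, plus strand: acattattcctatctagggcatcaAataat

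For TFB3, all 246 reads of the double depletion ended in the cluster 656 nt past the gene, where none of the 320 WT reads ended, and all WT reads ended in the cluster at 107 nt. That distal cluster lies past MFA1, the neighbouring gene for the mating pheromone a-factor, which had 567 reads in the double depletion and 25 in WT. For YGR210C, the cluster at 673 nt held all 446 reads of the double depletion, and the WT cluster at 96 nt held all 1413 WT reads and none of the double depletion. The distal cluster lies at the WT ends of TRX2, the neighbouring thioredoxin gene, which had 23158 reads in the double depletion and 8867 in WT (a log2 ratio of 3.06 after centring on the median gene). CRN1 had 938 of 951 reads (98.6%, 97.7% to 99.3%) in the cluster at 327 nt in the double depletion, against 0 of 1625 in WT. HCR1 had 960 of 992 reads (96.8%, 95.5% to 97.8%) at 401 nt in the double depletion, against 0 of 3281 in WT. The WT clusters of CRN1 at 154 nt and HCR1 at 240 nt kept 1.37% and 3.23% of the double-depletion reads, against 93.8% and 98.0% of the WT reads. SEC22 had 258 of 276 reads at 310 nt in the double depletion, against 48 of 1465 in WT. ECM16 had all 204 reads at 202 nt in the double depletion, against 22 of 535 in WT. In Bdp1AA the distal clusters of TFB3, YGR210C, CRN1, HCR1 and ECM16 held no read and that of SEC22 held 4.10%.

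Motifs known from yeast 3′ end formation, 3 in all, were looked for on the strand of the transcript in the 100 bases before the main end of coding genes. TATATA, the core of the efficiency element, preceded 45.6% (40.5% to 50.8%) of the 375 double-depletion main ends of coding genes with a distal switch, 44.0% (38.9% to 49.2%) of the WT main ends of the same genes, and 54.0% (52.0% to 56.0%) of the WT main ends of 2437 coding genes whose main cluster was the same. AATAAA, a form of the positioning element, preceded 26.7% (22.3% to 31.4%) of the double-depletion main ends with a distal switch, 17.9% (14.1% to 22.1%) of the WT main ends of those genes and 24.2% (22.5% to 25.96%) of main ends that were the same. AAAAAA, which can share its bases with AATAAA, preceded 22.1%, 18.9% and 20.9% of the same 3 sets in that order. In consecutive windows of 100 bases over both strands of the nuclear genome the shares were 5.67% for TATATA, 8.66% for AATAAA and 10.5% for AAAAAA. For switched genes the intervals of double-depletion and WT main ends did not overlap for AATAAA and overlapped for TATATA and AAAAAA. These intervals take genes as independent, and both ends come from the same genes. A run of A encoded in the genome can be taken for a poly(A) tail. At least 6 A among the 10 bases after the end were found for 4.27% of the double-depletion main ends with a distal switch, 4.53% of the WT main ends of those genes and 4.27% of the WT main ends that were the same. The main end of SEC22 in the double depletion is such an end, with 6 A.

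The distal move reached well past the usual 3′ UTRs. Averaged over the 2825 coding genes compared, 5.99% of a gene's reads ended more than 500 nt past it in the double depletion, against 1.37% in Bdp1AA and 1.33% in WT. Ends beyond 500 nt were listed for 690 of these genes in the double depletion, 72 in Bdp1AA and 77 in WT, and ends beyond 1000 nt for 459, 29 and 32 genes. Among all reads of coding genes the shares beyond 500 nt were closer, 4.96% in the double depletion, 3.93% in Bdp1AA and 2.04% in WT.

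**Figure D1:**
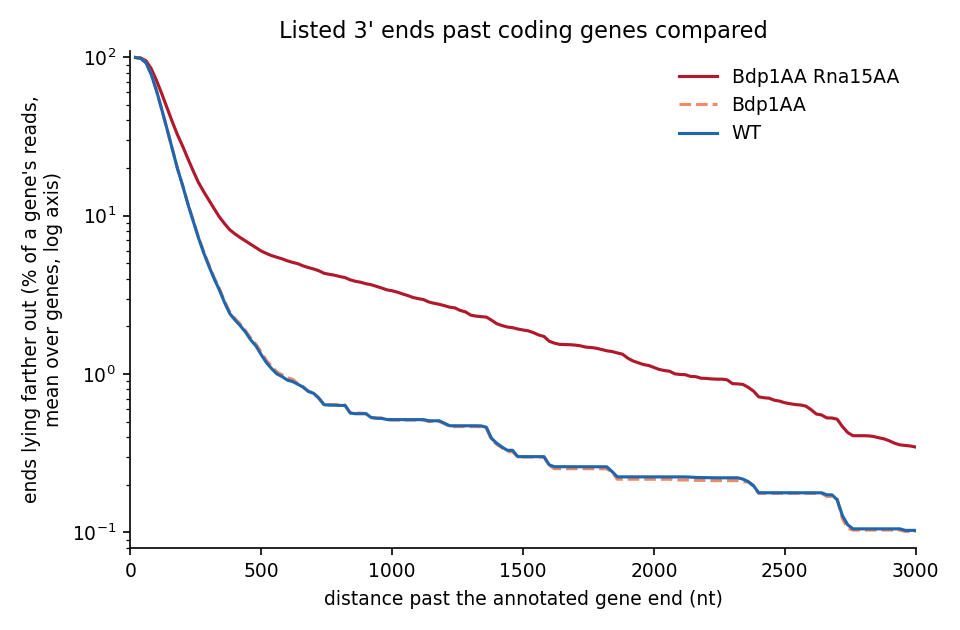
Mean share of a coding gene's reads (log axis, %) that end farther out than the distance on the x axis (nt past the annotated gene end), for the double depletion, Bdp1AA and WT. The Bdp1AA and WT curves lie on each other, and at 500 nt the double depletion stands at 5.99% against 1.37% and 1.33%.

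Whether a gene's ends moved varied with what lies downstream. Of 1306 coding genes whose next gene lies on the same strand (tandem), 623 (47.7%, 45.0% to 50.5%) were distal, and of 1500 whose next gene lies on the opposite strand (convergent), 560 (37.3%, 34.9% to 39.8%) were distal, beside 41.9% of all genes compared. At 100 nt or more the shares were 24.9% (22.6% to 27.3%) for tandem and 10.4% (8.90% to 12.1%) for convergent genes. Among convergent genes the share of distal genes was 22.0% (18.8% to 25.5%) at gaps under 200 bp, 46.1% (42.3% to 49.98%) at 200 to 400 bp and 56.3% (48.6% to 63.8%) at 400 to 800 bp and 44.4% (27.9% to 61.9%) above that. Tandem genes had 48.6% (36.9% to 60.6%) at gaps under 200 bp, 48.4% (44.3% to 52.5%) at 200 to 400 bp, 49.1% (44.5% to 53.6%) at 400 to 800 bp and 40.9% (33.3% to 48.8%) above that. These intervals treat genes as independent.

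By number of genes, ends past the whole next gene were listed more often in tandem than in convergent arrangements. At least 1 listed end lay past the whole next gene for 436 of 1306 tandem genes in the double depletion, 26 of 1297 in Bdp1AA and 30 of 1306 in WT. Averaged over tandem genes, 8.71% of reads ended there in the double depletion, 1.59% in Bdp1AA and 1.58% in WT. Ends inside a tandem next gene were listed for 89 genes in the double depletion and 32 in WT. Over all reads of tandem genes, 2.46% ended inside the next gene and 2.19% past it in the double depletion, against 1.09% and 0.495% in WT. For convergent genes the order was the reverse, with ends inside the next gene for 658 of 1500 in the double depletion and 456 of 1500 in WT, and ends past it for 123 in the double depletion and 21 in WT. Over all reads of convergent genes, 2.88% ended past the next gene in the double depletion and 1.45% in WT, so by pooled reads the share past a convergent gene was higher than past a tandem one in both groups.

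**Figure D2:**
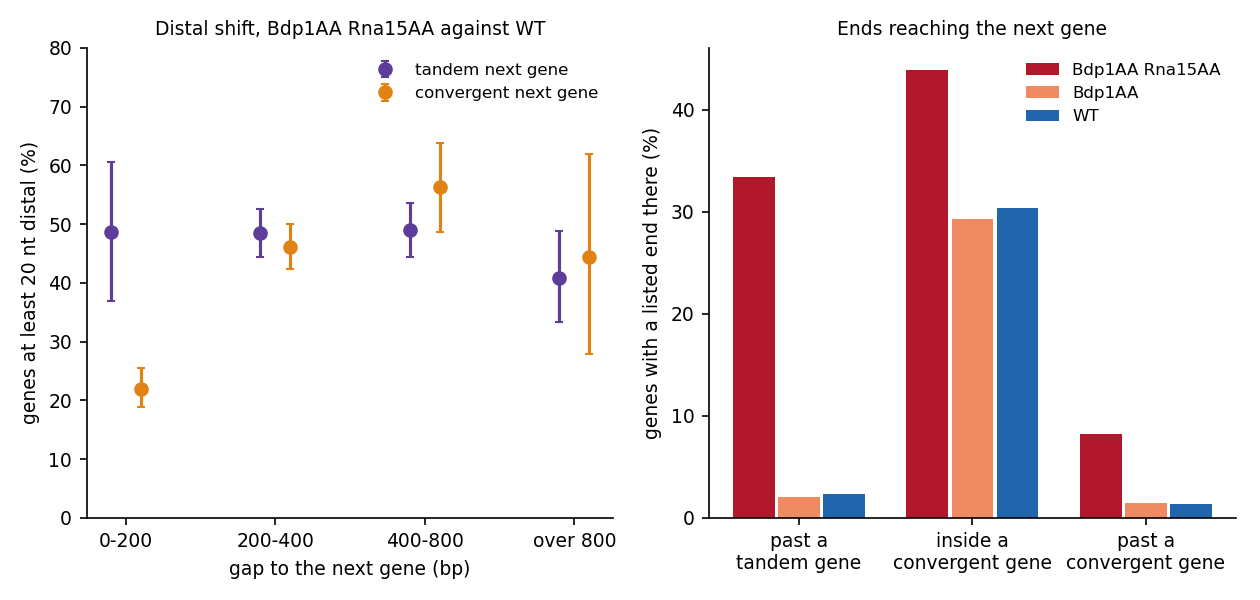
Left, share of coding genes at least 20 nt distal in the double depletion against WT (%, exact 95% intervals over genes) by the gap to the next gene (bp) and its strand. Right, share of coding genes (%) with a listed end past a tandem next gene, inside a convergent one or past a convergent one, where 436 of 1306 tandem genes of the double depletion stand out from 30 of 1306 in WT.

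Of 9 genes among those with the largest distal shifts, 7 had reads listed under the next tandem gene as well. COX19, an assembly factor of cytochrome c oxidase, had its mean end at 3213 nt in the double depletion and 552 nt in WT, and all 88 of its reads in the double depletion were also listed under the kinase gene KNS1. NPL4, a cofactor of the Cdc48 unfoldase, had its mean end at 2602 nt in the double depletion and 171 nt in WT, and all 151 of its reads in the double depletion were also listed under the chaperone gene SSE2. FIS1, which acts in mitochondrial fission, stood at 2507 nt in the double depletion and 80.02 nt in WT, and 107 of its 144 reads were also listed under RNR3. The vacuolar nucleoside transporter gene FUN26 (shift 2159 nt), YMR310C (2087 nt), the protein mannosyltransferase gene PMT1 (1900 nt) and the pantothenate synthase gene PAN6 (1891 nt) likewise had reads listed under PMT2, NIP1, PMT5 and ATG32. The Ty feature YDR261C-C, whose near-identical copies make its counts uncertain, shifted by 1902 nt. YNL040W, which lies upstream of BDP1, had all 69 reads of the double depletion at 2078 nt, 4 nt before the end of the tagged BDP1 gene, so its shift of 1926 nt ends at an altered locus.

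Of the 124 genes with a shift of at least 500 nt, 59 were at least 2-fold lower in level and 27 higher, beside 24.6% lower and 26.1% higher of all genes compared. Level and mean end come from the same reads, so these measures are not independent. The median log2 ratio to WT, centred on the median gene, was −0.93 for these 124 genes, −0.20 for 405 genes from 100 to 500 nt and 0.11 for 1709 genes with a shift under 20 nt either way.

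Proximal shifts were few. Of the 35 genes, 13 were rRNA or snoRNA features and 22 were coding, 12 moved by at least 50 nt and 7 by at least 100 nt. The spacer features ITS1-2 (−476 nt) and ITS2-2 (−347 nt), which have near-identical copies, moved farthest. Beyond rRNA features with near-identical copies and snR54 (−105 nt), the genes named were snR78, a box C/D snoRNA (mean end 160 nt in the double depletion and 226 nt in WT), YDL157C (103 and 165 nt), GLO3, an Arf GTPase-activating protein gene (50.1 and 108 nt), APT2 (165 and 221 nt) and snR68 (55.2 and 109 nt), with the double depletion first in each pair. GLO3 had 595 and 1185 reads behind these means, and YDL157C had 70 and 1966.

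Some ends were listed under both genes of a tandem pair, and their reads were taken as transcripts that span the pair. Over coding genes, 1.10% (1.09% to 1.11%) of the reads of the double depletion were also listed under a gene farther upstream, against 0.187% in Bdp1AA and 0.336% in WT. Adjacent tandem pairs that shared listed ends numbered 612 in the double depletion, 78 in Bdp1AA and 97 in WT, and 559 of the 612 did not share ends in WT. In 519 of these 559 pairs the downstream gene was listed in WT, and 92.1% of the 45317 shared reads ended within 25 nt of an end that this gene used in WT. In 443 of the 519 pairs all shared reads did. Most shared reads of the double depletion thus ended near a listed WT end of the downstream gene. Only ends listed under that gene were counted. The share among its unshared reads was not computed, so no difference between shared and unshared reads is read from this.

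TEF2 and MUD1 gave the most shared reads. TEF2 codes for translation elongation factor 1A and MUD1, at chrII:479338-480323 on the plus strand and 290 bp downstream of TEF2, for a protein of the U1 snRNP. MUD1 had 6907 reads in the double depletion, 169 in Bdp1AA and 318 in WT, and 3011 of the 6907 (43.6%) were listed under TEF2 as well, against none in Bdp1AA and none in WT. The signal of MUD1 was 524 in the double depletion and 13.7 in WT, a centred log2 ratio of 6.12 (5.95 to 6.28). The TEF2 reads that ended past MUD1 were 5.76% of the 52319 reads of TEF2 in the double depletion, and its main cluster, at 87 nt, held 84.3% in the double depletion, 99.3% in Bdp1AA and 99.3% in WT. The coding sequences of TEF1 and TEF2 are near-identical, and how reads were assigned between them was not tested.

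**Figure D3:**
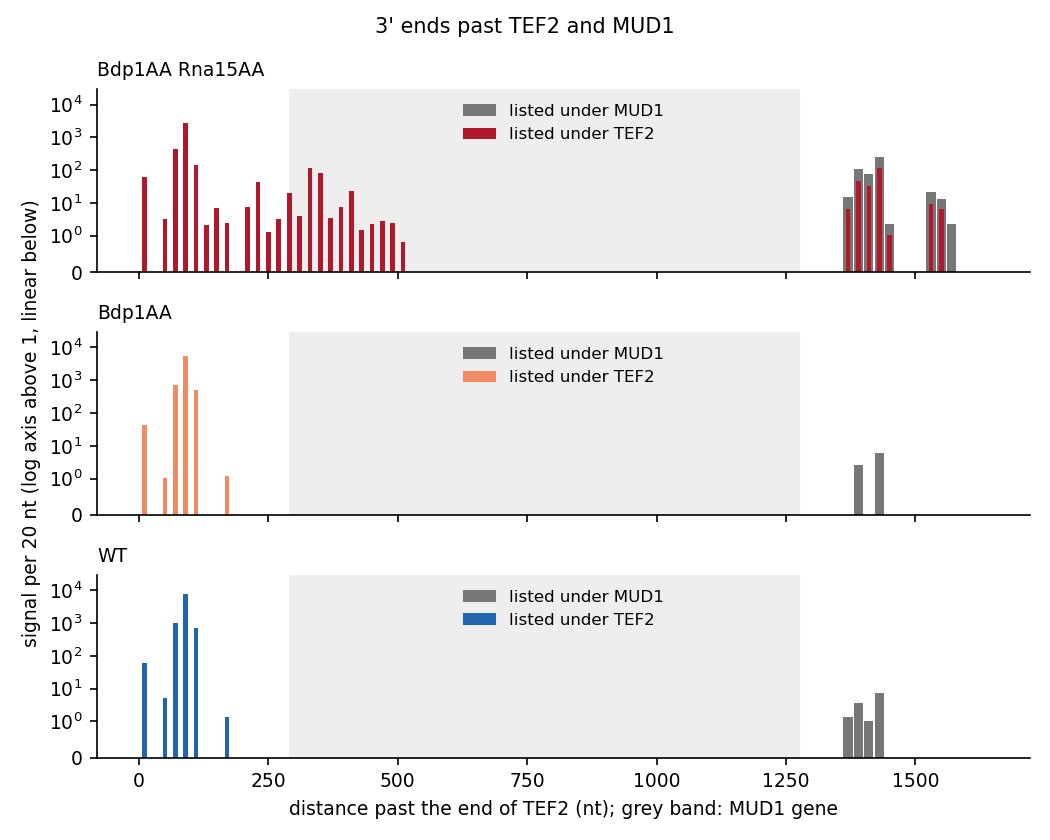
Signal of listed 3′ ends per 20 nt (log axis above 1, linear below) by distance past the end of TEF2 (nt), for the double depletion, Bdp1AA and WT from top to bottom. Coloured bars are ends listed under TEF2, grey bars ends listed under MUD1 and the grey band is the MUD1 gene. Ends under TEF2 reach past MUD1 in the double depletion alone, where they make up 43.6% of the reads of MUD1.

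Other pairs showed the same form. CTR2, a vacuolar copper transporter gene, lies downstream of the enolase gene ENO2 and had 4084 reads in the double depletion, 2007 of them listed under ENO2, against 495 and none in WT. MGR1, a subunit gene of the mitochondrial i-AAA protease, lies downstream of PDI1 (protein disulfide isomerase) and had 4635 reads in the double depletion, 1489 of them listed under PDI1, against 482 and none in WT. TRX1 (thioredoxin) shared 2401 of 8518 reads with PDC1 (pyruvate decarboxylase) in the double depletion and none of 14344 in WT. APQ12, a nuclear envelope protein gene, shared 1041 of 2405 reads with GVP36 in the double depletion and none of 1621 in WT. Centred log2 ratios were 4.72 for CTR2, 4.94 for MGR1, 0.92 for TRX1 and 2.25 for APQ12. When each read was counted only under the most upstream gene that lists it, they were 3.77 for CTR2, 4.41 for MGR1, 0.48 for TRX1, 1.46 for APQ12 and 5.32 for MUD1. A read that spans both genes but stops short of the upstream gene at its 5′ end would be listed under the downstream gene alone, so transcripts of the downstream gene and truncated spanning reads cannot be told apart.

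Sharing was more frequent among genes called higher. Of 388 coding genes that lie downstream of a tandem gene and were at least 2-fold higher in the double depletion, 220 (56.7%) shared ends with that gene, against 53 of 337 lower genes (15.7%) and 257 of 696 others (36.9%). In WT the shares for the same 3 sets were 5.41%, 6.23% and 4.45%. Shared reads count in a gene's own signal, and a position was listed only from 11 reads in the double depletion. Genes called higher could therefore show sharing more readily than lower ones. The part of this in the difference between the sets was not tested. Of 201 higher genes of any kind that shared ends in the double depletion and not in WT, 200 could be compared with reads counted under the most upstream gene, and 179 were still at least 2-fold higher.

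The level of a gene also varied with the level of its upstream neighbour. Where the upstream gene was tandem and had at least 16 times the gene's own WT signal, the median centred log2 ratio was 1.16 over 69 genes and 53.6% were higher, beside 26.1% of all genes compared. Where the upstream gene was divergent and as much stronger, the median was 0.01 over 43 genes and 27.9% were higher. At 4 to 16 times the medians were 0.90 over 126 tandem genes and 0.15 over 89 divergent genes, and below 1 they were −0.20 over 729 and −0.32 over 786. In Bdp1AA the medians of the same tandem sets lay between −0.08 and 0.03. Genes of low WT signal passed the minimum of 60 reads only where their signal in the double depletion was high, and the sixth of genes with the lowest WT signal had a median of 1.06. The part of WT level in the difference between bins was not tested.

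**Figure D4:**
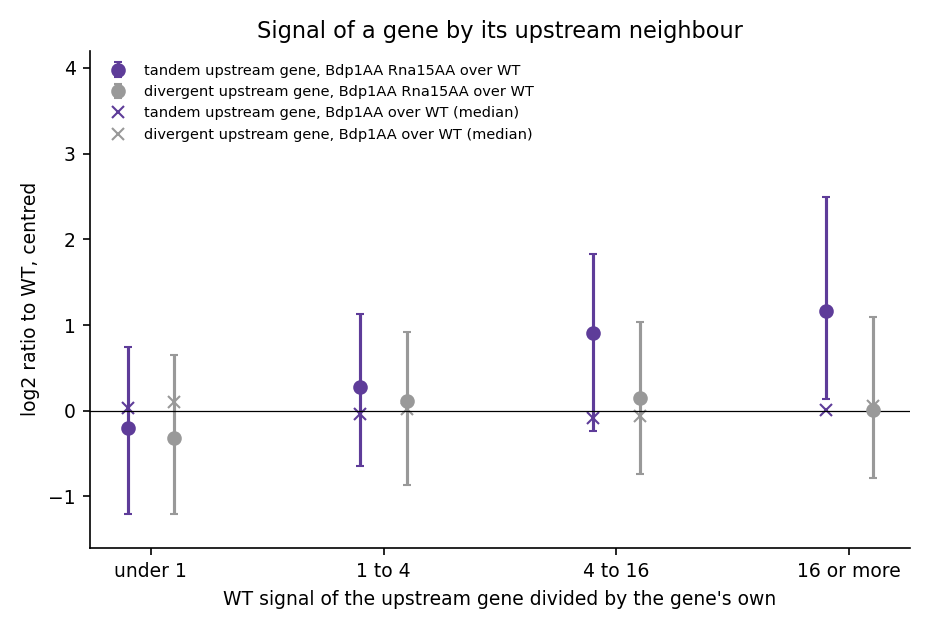
Centred log2 ratio to WT (median as a point with quartiles as bars for the double depletion, cross for the Bdp1AA median) of coding genes by the WT signal of the upstream gene divided by the gene's own. With a tandem upstream gene the double-depletion median goes up to 1.16 at 16 or more, and with a divergent one the medians run from −0.32 to 0.15 and end at 0.01.

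Genes followed by a tRNA gene moved more often. A tRNA gene lay within 500 bp past 65 coding genes compared, and 39 of them (60%, 47.1% to 72.0%) were distal, against 1132 of 2735 genes (41.4%, 39.5% to 43.3%) with none within 1000 bp. In Bdp1AA 12 of the 65 were distal, and 12 of 2669 genes with no tRNA gene. By strand of the tRNA gene, 36 of 55 genes with an opposite-strand one and 3 of 10 with a same-strand one were distal in the double depletion. Ends beyond the far edge of the tRNA gene made up 2.19% of reads in the double depletion (3290 of 149898, in 31 of the 65 genes), 0.498% in Bdp1AA (5 genes) and 0.0125% in WT (34 reads of PPQ1). Averaged over the 65 genes the shares were 11.6% in the double depletion, 1.68% in Bdp1AA and 0.0702% in WT. Genes with no tRNA gene had averages, past the median far edge of 303 nt, of 12.2% in the double depletion, 4.76% in Bdp1AA and 4.72% in WT. Their pooled shares were 9.75% in the double depletion, 6.51% in Bdp1AA and 3.80% in WT, so the double depletion came close to them in the average over genes and not in pooled reads.

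The 8 tRNA-flanked genes with the largest shifts moved by 210 to 368 nt. PCL5, a cyclin of the Pho85 kinase, had 722 of 963 reads (74.97%, 72.1% to 77.7%) beyond tF(GAA)H1 in the double depletion, 624 of 9088 (6.87%) in Bdp1AA and none of 872 in WT. YOR289W had all 126 reads beyond tA(UGC)O in the double depletion, 30.4% of 494 in Bdp1AA and none of 267 in WT. YOR059C, a lipid droplet lipase gene, had 91.8% of 233 reads beyond tK(UUU)O in the double depletion, 40.7% of 246 in Bdp1AA and none of 331 in WT. CUS2, which acts on U2 snRNA, had 43.3% of 247 reads beyond tG(UCC)N in the double depletion, 27.1% of 236 in Bdp1AA and none of 548 in WT. CHO1 (phosphatidylserine synthase) had 79.2% of 312 reads beyond tH(GUG)E1 in the double depletion, 3.98% of 1330 in Bdp1AA and none of 2053 in WT. ERF2, a palmitoyltransferase subunit gene, had 82.8% of 87 reads beyond tL(CAA)L in the double depletion and none in Bdp1AA or WT, and so had MFM1, a mitochondrial magnesium transporter gene, with 46.3% of 82 reads beyond tC(GCA)P1. YMR099C had 10.03% of 289 reads beyond tD(GUC)M in the double depletion and none in Bdp1AA or WT. In Bdp1AA the shares beyond the tRNA gene thus ran from none in ERF2, MFM1 and YMR099C to 40.7% in YOR059C.

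Levels changed in both directions relative to the median gene. At 2-fold, 783 of 3003 genes were higher (26.1%) and 740 were lower (24.6%) in the double depletion than in WT, with the counting interval wholly beyond 2-fold for 668 and 605 of them. At 4-fold the counts were 273 and 255. Against Bdp1AA as a background on the same WT column, 6.27% of 4543 genes were higher and 9.95% lower in Bdp1AA than in WT. Among the 2921 genes in both comparisons, 192 were higher and 227 lower in Bdp1AA. The counts for these genes in the double depletion were 723 and 738. The median gene stood at −0.86 (log2) on the deposited scale, and without centring 316 genes were higher and 1374 lower, so that higher genes were 18.7% of the calls and not 51.4%. The scaling of the signal is not known here, so less RNA per cell, fewer cells and a change of scale cannot be told apart.

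The highest genes included stress-induced and nutrient-related genes and genes downstream of a tandem neighbour. HSP12, a membrane-stabilising heat shock protein gene, had a signal of 1269 in the double depletion and 24.6 in WT, a log2 ratio of 6.55 (6.43 to 6.67), with a shift of its mean end of 0.46 nt. DDR2, a general stress gene, stood at 495 in the double depletion and 27.6 in WT (log2 5.02), ZRT1, the high-affinity zinc transporter gene, at 583 and 30.2 (5.13), and the carbonic anhydrase gene NCE103 at 808 and 47.1 (4.96), with the double depletion first. ADE17, a purine synthesis gene, had 208 in the double depletion and 4.68 in WT (6.33), and it shared no listed end with its upstream tandem gene RPL15B. MUD1 and MGR1, described above, were also among the 10 highest. YJL047C-A, at 7.62, is listed with 96.8% of its reads shared with the snoRNA snR60, itself at 5.45, and snR82 stood at 5.596 with a mean end at 1159 nt in the double depletion and 70.7 nt in WT, a shift that became −9.49 nt with reads counted under the nearest gene or with ends up to 500 nt. In Bdp1AA over WT the log2 ratios were 3.27 for ADE17, 1.88 for NCE103, 1.41 for YJL047C-A, 1.28 for HSP12, 1.15 for DDR2 and 0.54 for ZRT1. They were −0.15 for MUD1, −0.25 for snR60 and −0.74 for MGR1, and snR82 could not be compared there.

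The lowest genes included ribosomal protein, histone and nucleotide salvage genes. RPL8A, a large ribosomal subunit protein gene, had a signal of 9.63 in the double depletion and 629 in WT, a log2 ratio of −5.17 (−5.44 to −4.92). FUR1 (uracil phosphoribosyltransferase) stood at 9.02 in the double depletion and 544 in WT (−5.06), APT1 (adenine phosphoribosyltransferase) at 6.82 and 286 (−4.54), and the histone H2B gene HTB2 at 9.63 and 406 (−4.54). YOR385W (−4.79), SOL3 of the pentose phosphate pathway (−4.48), YNL010W (−4.31), RPL26A (−4.30) and DIA1 (−4.25) followed. The asparaginase gene ASP3-3 was lowest at −6.12, and its 4 near-identical copies cannot be told apart. In Bdp1AA over WT, ASP3-3 stood at −4.35 and RPL8A at −2.67, and the other genes named here lay from −0.46 (RPL26A) to 0.76 (SOL3).

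The gene lists differed in direction. They are described by counts beside the 26.1% higher and 24.6% lower of all genes compared, they were chosen with earlier results of these data known, and positive list medians below 0.86 become negative on the deposited scale. Ribosomal protein genes had far more members lower than higher: 61 of 136 were lower, 1 was higher, and the median was −0.86 in the double depletion and −0.18 in Bdp1AA. RPL8A and RPL26A led, with RPL7B (−3.96) and RPL42A (−3.84). Their paralogs stood at −1.55 for RPL8B, −1.13 for RPL26B, 0.25 for RPL7A and −1.24 for RPL42B. RPL8A, RPL7B and RPL42A stood at −2.67, −2.96 and −2.86 in Bdp1AA as well, and RPL26A at −0.46. Ribosome biogenesis factors had 21 lower and 2 higher of 54 (median −0.47, and −0.77 in Bdp1AA), led by MAK21 (−2.96) and UTP10 (−2.85). Translation factors had 9 lower and 4 higher of 32, from TIF35, an initiation factor 3 subunit gene, at −2.54 to SUI1, which codes for initiation factor 1, at 2.65. Of 19 aminoacyl-tRNA synthetase genes 6 were lower and none higher (median −0.72), with the aspartyl-tRNA synthetase gene DPS1 at −3.49 and a shift of 693 nt.

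In the exosome and Pol III lists more genes were lower than higher. Exosome and exonuclease subunit genes had 5 lower and none higher of 13 (median −0.95), with RRP42 at −2.93 and RRP43 at −2.47. Pol III subunit genes had 4 lower and 1 higher of 11 (median −0.78), with the shared subunit gene RPB8 at −1.92 and the largest subunit gene RPO31 at −1.39. Of 21 cleavage and polyadenylation factor genes 6 were listed in WT and not in the double depletion (beside 1222 of all 5274 coding genes listed in WT) and 11 could be compared, 3 higher and 2 lower. PAB1, the poly(A)-binding protein gene, had 333 reads in the double depletion and 9130 in WT (−3.10), and RNA14, whose product pairs with Rna15, had 377 and 485 (1.31). Of 9 histone genes 2 were higher and 2 lower: the H2B genes HTB1 at 1.07 and HTB2 at −4.54, the H3 gene HHT1 at 1.25 and the H2A gene HTA2 at −1.19. Of 10 genes for U1 snRNP proteins 4 were compared, 2 higher (MUD1, and SNU71 at 1.38) and 1 lower (YHC1 at −1.21, shift 723 nt). Of 17 tRNA processing and export genes 3 were higher and 4 lower, shares no larger than those of all genes, with NCL1, a tRNA methyltransferase gene, at −2.04.

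Stress, respiratory and proteasome genes had more members higher than lower. Of 32 stress-induced genes 18 were higher and 2 lower (median 1.29, and 0.58 in Bdp1AA), with TMA10 at 3.94 and CYC7 at 3.60 after HSP12 and DDR2. Proteasome genes had 14 higher and 5 lower of 33 (median 0.64), with PRE4 at 3.11 and the regulator gene RPN4 at 2.77. Mitochondrial ribosomal protein genes had 25 higher and 8 lower of 60 (median 0.61), with MRPS5 at 3.59. Respiratory chain and ATP synthase genes had 11 higher and 3 lower of 34 (median 0.45), with SDH2 at 3.40 and QCR6 at 3.33. Of 5 hexose transporter genes 3 were higher, though HXT6 (3.30) and HXT7 (3.16) are near-identical. Glycolysis genes had 4 higher and 1 lower of 18, with PDC5 at 3.51 and PGK1 at 2.18. Of 9 genes often used as references 5 were higher and none lower (median 1.11), with UBC6 at 2.03 and TUB2 at 1.505.

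Amino acid genes under the activator Gcn4 had more members higher than lower in both depletions. In the double depletion 16 of 46 were higher and 5 lower (median 0.61), and in Bdp1AA 40 of 46 were higher and none lower (median 2.03). SNZ1, a vitamin B6 synthesis gene of this regulon, stood at 4.77 in the double depletion and 4.88 in Bdp1AA, LYS1, of lysine synthesis, at 4.70 and 3.38, and ARG1, of arginine synthesis, at 4.39 and 7.503, with the double depletion first. Among phosphate regulon genes 4 of 13 were lower in the double depletion and none higher (median −0.78), with SPL2 at −2.54. The counts were the same in Bdp1AA (median −0.54). Ergosterol genes had 4 higher and 5 lower of 21, from MVD1 (−2.27, shift 702 nt) to ERG13 (2.40). Chaperone genes had 6 higher and 2 lower of 25, from STI1 at −2.08 to MDJ1 at 2.59. Nitrogen catabolite repression genes had 6 higher and 5 lower of 16, with the 4 ASP3 copies among the lower, and the 9 genes known to be attenuated by early termination had 3 of each.

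Ty and snoRNA features had more members higher than lower. Of 82 Ty features 55 were higher and 1 lower (median 1.29, and −0.04 in Bdp1AA), but their near-identical copies make single features uncertain. Of 32 snoRNA features compared 17 were higher and 2 lower (median 1.09), with 12 distal and 7 proximal, and snR59 was lowest at −3.69. Of 64 snoRNA features listed in WT, 14 were not listed in the double depletion. A feature as weak in WT as snR82 (68 reads) could pass the minimum only with a high signal in the double depletion. The part of this in the snoRNA counts was not tested. Of 224 tRNA features 5 had enough reads, with log2 ratios of 1.07 to 4.68. Features as weak in WT as some of these could pass the minimum only with a high signal in the double depletion. In addition, 31 tRNA features were listed in WT alone and 30 in the double depletion alone, beside 1316 and 203 of all features. No direction is therefore read from the tRNA features. The 20 rRNA features, in 2 near-identical copies, had 4 higher and 8 lower.

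**Figure D5:**
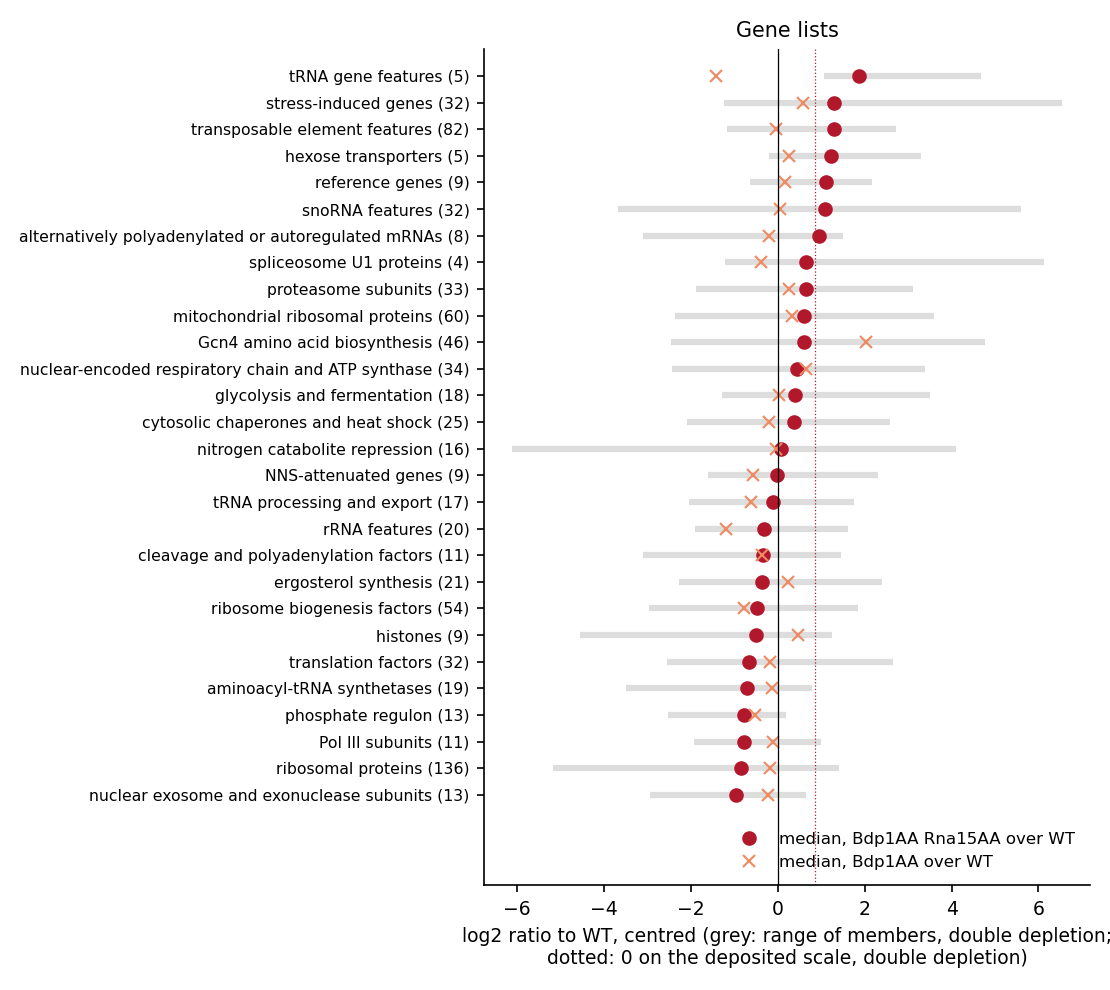
Centred log2 ratio to WT by gene list with at least 4 genes compared (number in brackets), with the double-depletion median as a filled point, the Bdp1AA median as a cross and the range of members in the double depletion as a grey bar. Ribosomal protein and exosome genes have medians of −0.86 and −0.95, stress-induced genes and Ty features 1.29 each, and the dotted line marks 0 on the deposited scale.

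Many genes were listed in a single table. WT and the double depletion had 4303 features in common, 1316 were listed in WT alone and 203 in the double depletion alone. Of the 1316, 1222 were coding, their median was 200 reads in WT, and for 1102 the top WT position would still have been listed in the double depletion had the gene followed the median. The share of WT-listed coding genes not listed in the double depletion was 57.1% (53.1% to 60.9%) at a WT signal under 5, 31.8% (28.9% to 34.7%) at 10 to 20 and 0.897% (0.388% to 1.76%) at 100 or more. In Bdp1AA the shares were 33.6%, 1.45% and 0.112%. Absence here means that no position downstream of the gene reached the minimum, not that the transcript was absent. Ends inside a gene were listed for minus-strand genes only and did not count here. A plus-strand gene whose reads all ended inside it would thus not be listed at any depth.

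Several well-expressed genes had no listed end in the double depletion. DPM1 (dolichol phosphate mannose synthase) had 4119 reads in WT and 2951 in Bdp1AA, with 969 WT reads at its top position. PKR1, which acts in assembly of the vacuolar proton pump, had 3639 reads in WT, PRS3 of nucleotide precursor synthesis 3493, ADI1 of methionine salvage 3390, the glucanase gene DSE4 3303, YDL086W 3183, the proline synthesis gene PRO2 2956, the N-terminal acetyltransferase gene ARD1 2034 and the leucine synthesis gene LEU9 1970. The tRNA feature tD(GUC)O had 1944. Each of these was listed in Bdp1AA, with 606 to 3532 reads. At the positions of their WT ends the double depletion listed no read under any other gene.

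The genes with most reads among those listed in the double depletion alone shared many of them with a tandem gene upstream. Of 142 coding genes, 86 (60.6%) lay downstream of a tandem gene, against 49.9% of the 4052 coding genes listed in both tables, and 40 of the 142 shared ends with it, against 572 of the 4052. RRT5 had 3425 reads in the double depletion, 1927 of them listed under RPL29. YHR175W-A had 3098, 1955 of them listed under CTR2, which itself carried reads of ENO2. MTC7 had 1508 reads with 828 listed under HYP2, AGA2, an adhesion subunit gene of a cells, 1422 with 612 under RPL24A, and the meiosis gene SPO19 1279 with 554 under RPL5. GAS2, a spore wall glucanosyltransferase gene, had 491 reads and RNR3, a ribonucleotide reductase gene, 356, with 195 and 107 shared. YAL037W (676) and YBR284W (382) have a divergent gene upstream, so they could share no ends with an adjacent tandem gene. The neighbours of the tRNA feature SUF7 (707), which had 816 reads in Bdp1AA, were not classified. Of the YAL037W reads, however, 14.1% were also listed under a gene farther upstream. In the 5 genes RRT5, YHR175W-A, MTC7, AGA2 and SPO19, between 43.0% and 63.1% of the reads were thus also listed under the gene upstream.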

How the data were processed

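Direct RNA libraries (3 per group) were made from hot phenol total RNA with the SQK-RNA004 kit, per the labels' protocols, and the genome build was R64, per the submitters' processing notes. The authors deposited 1 table per group of signal, a scaled number of 3′ read ends per gene and position, with aligner, gene assignment and scale not stated. The signal was divided by its step (values whole within 0.001) to recover reads. Files count gene starts and minus-strand ends from 0, and 1 was added. A read was taken to be listed under each gene it overlaps, which is inferred and not stated, and was kept under each. At positions listed under several genes, the farther gene mostly had no more reads than the nearer one. This held for 98.8% of cases in the double depletion, 96.5% in Bdp1AA and 100% in WT. Of 5835 features with a locus tag in the RefSeq R64 annotation, 5826 had the same coordinates. Dubious features are counted and not named. For 1 gene chosen this way, no result is reported here. The 2-fold, 20 nt and 20-point thresholds stand in for tests, since the planned tests needed separate libraries; replicates could not be checked for duplicates. Main clusters needed 10 reads. Shares and log2 ratios carry exact 95% (Clopper-Pearson) intervals. The genes named are the extremes of each measure, the strain genes, and up to 4 members per list; pairs of tandem genes, paralogs and neighbours were added after their values were seen. Members, lists and rules were chosen with earlier results of these data known. Scripts (Python 3.11.15, numpy 2.4.6, pandas 2.3.3, scipy 1.17.1) were tested on simulated data.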

Additional observations from a re-analysis of the deposited data

How the results depend on the processing

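No paired analysis was possible because the 3 libraries of each group are pooled in 1 column, and for the same reason no library could be left out. Genes 2-fold higher and lower numbered 316 and 1374 without centring and 428 and 428 at a minimum of 200 reads, and lay between 699 and 1070 and between 670 and 1060 under the other settings, the one added after seeing the data (reads under the most upstream gene) included. Distal genes numbered 669 by the median end and 779 with ends up to 500 nt, and 846 to 1575 otherwise; proximal genes numbered 22 by the median end, 19 at 200 reads and 22 without noncoding and Ty features. Site usage gave 564 to 1157 genes. Among single genes, the shift changed sign for YJL047C-A (20.2 nt with the minimum as deposited), RPL8A (−48.8 nt up to 500 nt), and RPL26A and snR82 (−3.99 and −9.49 nt, both up to 500 nt and under the nearest gene); the cause was not tested. With 50 bases in place of 100, each motif was found less often, as a shorter window must give: TATATA before 30.9% of the distal double-depletion ends, 28.5% of the WT ends of those genes and 32.2% of ends that were the same, AATAAA before 18.1%, 10.4% and 16.8%, and AAAAAA before 13.1%, 10.4% and 12.7%. The tRNA-flanked share was 61.0% within 250 bp and 56.7% within 1000 bp. Depth limits the double depletion most: a position needed 11 reads there and 20 in WT, and weak genes drop out.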
